A study of Homo sapiens with 12 samples.

Results

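Matrix metalloproteinases (MMPs) were examined as transcripts of HEYA8, an established ovarian cancer cell line, in cells that carried an empty control vector or forms of betaglycan, the type III TGF-β receptor. The genes taken were MMP1, MMP2, MMP3, MMP14, MMP15, MMP16, MMP17, MMP19 and MMP24, 9 of the 56269 genes in the count table, chosen by name. Another 15 genes named as MMPs in the table were used only for comparison. The question was what each of these proteases amounted to in HEYA8 cells, whether it differed between the betaglycan forms, and which were too low for a comparison.

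RNA was sequenced in 12 libraries, 3 from each of the lines labelled S545A (HS-BG), S534A (CS-BG), ∆GAG-BG and control vector. ∆GAG-BG is betaglycan with both serines that carry glycosaminoglycan chains changed to alanine. S534A and S545A each change 1 of these serines, and the study names the lines CS-BG and HS-BG for the chondroitin or heparan sulfate that predominates on them. Digestion in the study found chains of both kinds on S534A. All betaglycan forms were stably expressed from a lentiviral vector that also encodes the dTomato reporter, by which infected cells were sorted, and all cells were in RPMI medium with 10% serum, a condition the labels call resting state and the study steady-state growth. The labels do not say whether the 3 libraries of a group came from separate cultures. The study says of its graphs in general that they represent independent experiments, but does not name these libraries, so the p-values below measure the spread between these libraries, which may be technical.

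MMPs are zinc-dependent endopeptidases that are made as inactive proenzymes and cut collagens, other matrix proteins and the ectodomains of surface proteins. Secreted members such as the collagenase MMP1, the gelatinase MMP2 and the stromelysin MMP3 act in the pericellular space. Membrane-type members stay on the cell, among the 9 genes MMP14, MMP15, MMP16 and MMP24 through a transmembrane segment and MMP17 through a glycolipid anchor. Furin-like convertases activate the membrane-type enzymes, MMP14 together with TIMP2 activates pro-MMP2, and TIMPs and RECK are inhibitors of MMPs. In ovarian carcinoma MMPs are studied for invasion of the peritoneal lining and for shedding of receptors.

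The libraries held 16410001 to 29504297 counts, and 3 counts, taken here as the floor, corresponded to at most 0.182 CPM, the unit used below for a gene's counts relative to the TMM-scaled total of its library. TGFBR3, the gene of betaglycan, was at 413 to 574 CPM in the S534A and S545A libraries. It was at 259, 20.3 and 21.4 CPM in ∆GAG-BG libraries 1, 2 and 3 and at 15.9, 259 and 259 CPM in control vector libraries 1, 2 and 3, so libraries 2 and 3 of these groups went against their labels. Hence ∆GAG-BG and control vector below name libraries as labelled. The log2 fold change of S545A against S534A compares libraries of neither label. Its SE and p-value do depend on these labels, because the fit shared by all groups takes in their libraries. TGFBR3 itself was at 520 to 574 CPM in S545A and 413 to 476 CPM in S534A, yet its log2 fold change of 0.26 had an SE of 0.962. In every group but S534A, libraries 2 and 3 were also far closer to each other (chi-square per degree of freedom 1.37 to 1.89) than other libraries of one group (15.6 to 69.1). The third S545A library is titled S545S, but its genotype label reads S545A. HEYA8 markers were mixed: PAX8, an ovarian carcinoma marker, was at 193 to 295 CPM, whereas MUC16 and CDH1 were at 0 in every library. The epithelial keratins KRT7, KRT8 and KRT18 ran from 451 CPM (KRT18) to 1140 CPM (KRT7), while WT1, EPCAM and KRT19 stayed at or below 8.37 CPM. Mesenchymal markers VIM, CDH2, FN1 and ZEB1 ran from 94.8 CPM (ZEB1) to 3130 CPM (VIM). Immune markers summed to at most 0.136 CPM. Endothelial markers summed to 171 to 445 CPM, nearly all of it CDH5 (168 to 431 CPM), while VWF was at 2.63 to 14.9 CPM and PECAM1 at 0.205 to 0.767 CPM.

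MMP14 was the most abundant of the 9 genes. Its gene occupies bases 22836557 to 22849027 of chromosome 14 (GRCh38, plus strand), and its enzyme is a membrane-bound collagenase and the activator of pro-MMP2. Per transcript length its median over the 12 libraries was 95.6 RPKM (CPM per kilobase of transcript, with a range of 84.0 to 146), which stood at the 97.8 percentile of all genes tested. MMP16, another transmembrane member, followed with a median of 3.87 RPKM, at the 51.1 percentile. The median of MMP14 was 24.7 times that of MMP16, and that of MMP16 was 7.46 times that of the next member. MMP14 was above MMP16, and MMP16 above all further members, in 12 of 12 libraries.

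The other members were at low levels. MMP19 had a median of 0.519 RPKM, MMP1 0.422 RPKM, MMP17 0.347 RPKM and MMP15 0.223 RPKM, all at or below the 17.2 percentile of the genes tested. Neighbours in this order were not well separated at the top: MMP19 exceeded MMP1 in 7 of 12 libraries and MMP1 exceeded MMP17 in 9, while MMP17 exceeded MMP15 in all 12. At the bottom stood MMP24 (0.0490 RPKM), MMP3 (0.0412 RPKM) and MMP2 (0.0193 RPKM), where MMP24 exceeded MMP3 in 8 of 12 libraries and MMP3 exceeded MMP2 in 7. Thus HEYA8 cells expressed MMP14 at high and MMP16 at middle level, and the secreted gelatinase MMP2 and stromelysin MMP3 near the limit of detection. The order of the medians was the same on the TPM scale.

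**Figure D1:**
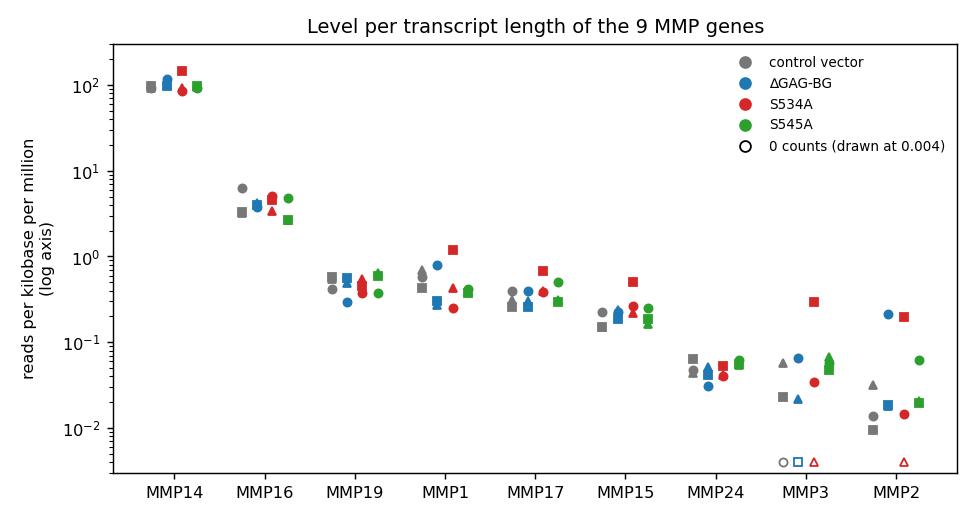
Level per transcript length of the 9 MMP genes, in RPKM on a log axis, with 1 point per library, coloured by group and shaped by replicate as circle (1), square (2) and triangle (3). MMP14 (median 95.6) and MMP16 (3.87) stand apart from the other members in all 12 libraries, and open symbols mark the libraries in which MMP2 or MMP3 had 0 counts.

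Promoter sequence was at hand for MMP14, MMP15 and MMP24 in the RefSeq table (GRCh38.p14), and not for the other 6 members. The windows of MMP14 and MMP24, the most and the least abundant membrane-type members, are shown because GC boxes and AP-1 sites are textbook elements of MMP promoters. Each is the 120 bases before the first base of the gene in GENCODE release 29, chr14:22836437-22836556 and chr20:35226534-35226653, both on the plus strand. Capitals mark the GC box, GGGCGG or its reverse complement CCGCCC, a motif of SP1-like factors.
MMP14: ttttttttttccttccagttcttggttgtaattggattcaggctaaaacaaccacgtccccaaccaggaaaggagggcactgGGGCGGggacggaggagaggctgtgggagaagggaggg
MMP24: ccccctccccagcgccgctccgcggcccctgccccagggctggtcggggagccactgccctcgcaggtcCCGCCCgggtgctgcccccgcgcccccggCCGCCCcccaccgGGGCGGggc

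Over the whole 300-base windows of the table, searched on both strands, MMP14 held 1 GC box, at -66 from its RefSeq start, MMP15 held 5 and MMP24 held 3. A GC box was in 45.0% of the 35116 promoters of the table. None of the 3 windows held the AP-1 motif TGAGTCA, which 4.95% of promoters held, or TATAAA, which 11.5% held. So the abundant MMP14 and the near-silent MMP24 both had GC boxes. Whether these letters go with level was not tested, since only 3 of the 9 members had sequence.

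No member differed between groups at an adjusted p under 0.05. Of the 9 genes, 6 passed the filter on low counts (MMP1, MMP14, MMP15, MMP16, MMP17 and MMP19) and 3 did not (MMP2, MMP3 and MMP24), which are therefore too low to compare. In each of the 6 comparisons of groups 0 of the 6 tested members were called by edgeR's quasi-likelihood test with Benjamini-Hochberg adjustment over 16069 genes, where the background was 0% (0 genes) as well. DESeq2 and limma-voom also called 0 members in every comparison. Among all genes DESeq2 called 0.0311% in S534A versus ∆GAG-BG, 0.0125% in S534A versus control vector, 0.00623% in S545A versus S534A and 0% elsewhere, and limma-voom 0.00622% in each of these 3 and 0% elsewhere. At an unadjusted p under 0.05, edgeR gave 1 member, MMP15, in each of 2 comparisons. These were S534A against control vector, with a background of 3.45% of genes tested (2.19% higher in S534A), and S545A versus S534A, with a background of 4.78% (2.68% lower in S545A). It gave 0 members when S534A or S545A was set against ∆GAG-BG, with 2.99% and 1.1% of genes tested. It also gave 0 when ∆GAG-BG or S545A was set against control vector, with 0.865% and 1.05%. DESeq2 and limma-voom each gave 1 member at this level in S534A versus control vector and 0 elsewhere.

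**Figure D2:**
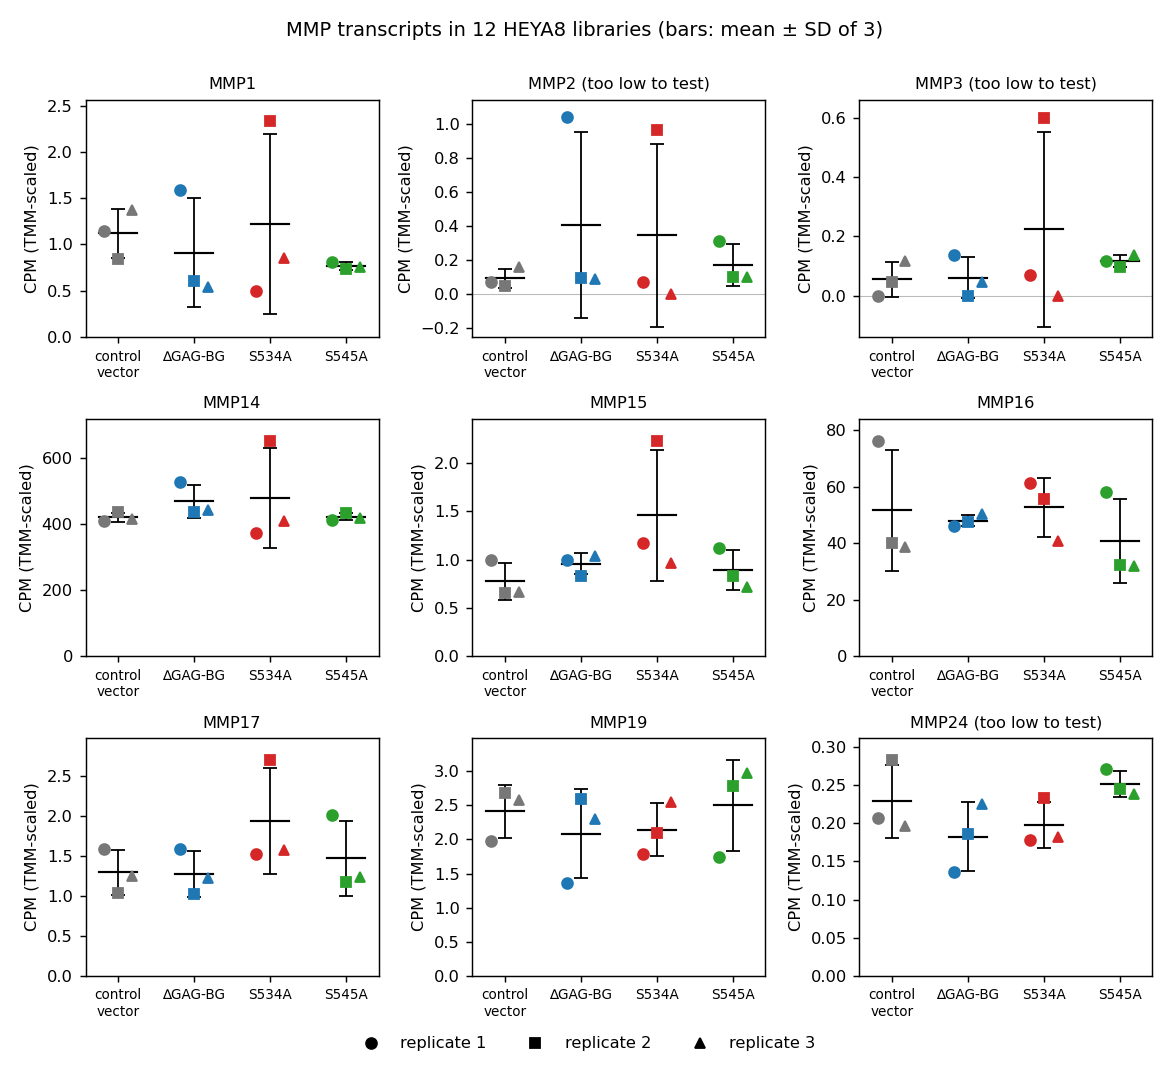
CPM (TMM-scaled, linear axes) of each of the 9 MMP genes in the 12 libraries by labelled group; points are libraries, horizontal lines the mean and error bars the SD of 3. S534A replicate 2 is the highest library for MMP1, MMP3, MMP14, MMP15 and MMP17, and MMP2, MMP3 and MMP24 stayed at or below 1.04 CPM.

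Among the membrane-type members, MMP14 was at 410, 437 and 415 CPM in control vector libraries 1, 2 and 3. It was at 527, 438 and 444 CPM in the ∆GAG-BG libraries, at 375, 653 and 410 CPM in the S534A libraries and at 414, 434 and 420 CPM in the S545A libraries. S534A thus held both the lowest and the highest of the 12 values. The group means were 421 ± 14.3 CPM in control vector, 469 ± 50.1 CPM in ∆GAG-BG, 479 ± 151 CPM in S534A and 422 ± 10.3 CPM in S545A (SD, n = 3 each). S545A and control vector differed by a log2 fold change of 0.01 (95% interval -0.36 to 0.37), so a difference within that interval was not detectable here. The ∆GAG-BG libraries lay just above both the control vector libraries (log2 fold change 0.16, SE 0.169) and the S545A libraries (log2 fold change of S545A relative to ∆GAG-BG -0.15, SE 0.169) without overlap. The edgeR adjusted p was 1 for both, and the exact permutation p was 0.1 for both, the smallest that 3 libraries against 3 can give. MMP14 was the 1 tested member without overlap in each of these 2 comparisons, where 2.74% and 2.43% of genes tested did the same in the same direction, and the smallest gap was between 437 and 438 CPM. Ordered by TGFBR3 level instead of label, the ∆GAG-BG and control vector libraries overlapped. MMP14 was at 527, 437 and 415 CPM where TGFBR3 was at 259 CPM, and at 410, 438 and 444 CPM where TGFBR3 was at most 21.4 CPM.

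For MMP14 in S534A the result turned on 1 library. With all libraries, S534A against ∆GAG-BG gave a log2 fold change of 0.03 (SE 0.169, edgeR adjusted p = 0.977). Without S534A replicate 2 it was -0.26, with an unadjusted p under 0.05 but an edgeR adjusted p of 0.999. Likewise S534A against control vector went from 0.19 to -0.10 and S545A against S534A from -0.18 to 0.11. Hence no direction can be given for MMP14 in S534A cells.

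MMP15 encodes a transmembrane relative of MMP14 and lies on chromosome 16 from 58025566 to 58046901 on the plus strand. It was at 1.00, 0.659 and 0.665 CPM in the control vector libraries, at 0.997, 0.835 and 1.04 CPM in the ∆GAG-BG libraries, at 1.17, 2.23 and 0.970 CPM in the S534A libraries and at 1.12, 0.832 and 0.717 CPM in the S545A libraries. These values rest on 14 to 67 counts. S534A replicate 2 was 1.91 times the next library, and the S534A group overlapped every other group. S534A against control vector gave a log2 fold change of 0.93 (SE 0.329, 95% interval 0.21 to 1.64) with an edgeR p of 0.0156, an adjusted p of 0.871 and an exact permutation p of 0.2. S545A against S534A gave -0.74 (SE 0.325) with an edgeR p of 0.0412 and an adjusted p of 0.702. Its exact permutation p was also 0.2. Without S534A replicate 2 the values were 0.46 and -0.28, neither at an unadjusted p under 0.05, so the unadjusted difference rested on that library.

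MMP16, on chromosome 8, encodes a transmembrane enzyme that like MMP14 can activate pro-MMP2. It was at 76.3, 40.0 and 38.6 CPM in the control vector libraries, at 46.2, 47.6 and 50.3 CPM in the ∆GAG-BG libraries, at 61.3, 55.8 and 40.9 CPM in the S534A libraries and at 58.0, 32.5 and 31.9 CPM in the S545A libraries. Within control vector and S545A replicate 1 was well above the closely similar replicates 2 and 3, whereas the ∆GAG-BG libraries were near each other. The means were 51.6 ± 21.4, 48.0 ± 2.11, 52.6 ± 10.6 and 40.8 ± 14.9 CPM in the same order (SD, n = 3). The log2 fold change of S545A against control vector was -0.34 (SE 0.287, edgeR adjusted p = 1), and the groups overlapped. Replicate number was treated as a pairing for this comparison, a choice made from these same data. For MMP16, S545A was below control vector in 3 of 3 pairs, with log2 differences in CPM of -0.40, -0.30 and -0.27. MMP1 was also below control vector in every pair (-0.49, -0.21 and -0.87), and MMP15 was above it in every pair (0.16, 0.34 and 0.11). The share of all genes tested with a single sign in every pair was not computed. Libraries 2 and 3 were nearly alike in both groups (chi-square per degree of freedom 1.37 and 1.41), so their pairs are not separate evidence. For MMP16 the replicate block gave -0.33 (edgeR adjusted p = 1). Leaving out control vector replicate 1 alone, which breaks its pair, turned the value to 0.05, and leaving out S545A replicate 1 alone gave -0.68 (unadjusted p under 0.05, edgeR adjusted p = 0.971). S545A relative to S534A was -0.37 (SE 0.287, edgeR adjusted p = 0.71) and -0.71 without S545A replicate 1 (unadjusted p under 0.05, edgeR adjusted p = 0.415).

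MMP17 and MMP24 were the remaining membrane-type members among the 9 genes. MMP17, the glycolipid-anchored member on chromosome 12 (131828393 to 131851783, plus strand), was at 1.59, 1.04 and 1.25 CPM in the control vector libraries, at 1.59, 1.02 and 1.22 CPM in the ∆GAG-BG libraries, at 1.53, 2.70 and 1.58 CPM in the S534A libraries and at 2.01, 1.17 and 1.23 CPM in the S545A libraries. Its log2 fold change in S534A was 0.59 against control vector (SE 0.304, edgeR adjusted p = 0.871) and 0.62 against ∆GAG-BG (SE 0.308, edgeR adjusted p = 0.89). Without S534A replicate 2 these were 0.24 and 0.28, and all 4 groups overlapped. MMP24, on chromosome 20 (35226654 to 35277000, plus strand), is known mainly from neural tissue. It was counted 6, 6 and 5 times in the control vector libraries, 3, 4 and 5 times in the ∆GAG-BG libraries, 5, 7 and 3 times in the S534A libraries and 7, 5 and 7 times in the S545A libraries. In CPM the S545A libraries (0.239 to 0.271) lay above the ∆GAG-BG (0.136 to 0.226) and S534A (0.178 to 0.233) libraries, which 2.62% and 5.31% of genes tested also did. However, a count of 7 has an exact 95% Poisson interval of 2.81 to 14.4 counts, wider than the whole range of the 12 values. Such intervals cover counting error only. In addition 21.8% of the exon bases of MMP24 were shared with genes on the opposite strand, mainly MMP24-AS1. The kit was directional, but the strand setting of the counting is not given in the sources used here, so the 2 genes' reads may not be told apart.

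Among the secreted members, MMP1, the interstitial collagenase, was low but countable. MMP1 lies on chromosome 11 from 102789920 to 102798160 on the minus strand. It was at 1.14, 0.848 and 1.37 CPM in the control vector libraries, at 1.59, 0.603 and 0.541 CPM in the ∆GAG-BG libraries, at 0.497, 2.33 and 0.849 CPM in the S534A libraries and at 0.813, 0.734 and 0.751 CPM in the S545A libraries. The counts behind these values were 12 to 70. The S545A libraries were all just below the control vector libraries, with the nearest at 0.813 and 0.848 CPM (log2 fold change -0.55, SE 0.536, edgeR adjusted p = 1, exact permutation p = 0.1), and 4.09% of genes tested lay lower without overlap in this comparison. S534A spanned the full range of the gene, 4.69-fold from its first to its second library. Its log2 fold change against ∆GAG-BG was 0.46 (SE 0.529, edgeR adjusted p = 0.892) with all libraries, -0.50 without S534A replicate 2 and 1.14 without ∆GAG-BG replicate 1. Against control vector it was 0.16 with all libraries and -0.80 without S534A replicate 2.

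MMP19 encodes a secreted enzyme that cuts basement membrane proteins, on chromosome 12 from 55835433 to 55842966 on the minus strand. It was at 1.97, 2.68 and 2.58 CPM in the control vector libraries, at 1.36, 2.60 and 2.30 CPM in the ∆GAG-BG libraries, at 1.78, 2.10 and 2.55 CPM in the S534A libraries and at 1.74, 2.79 and 2.97 CPM in the S545A libraries. Replicate 1 was the lowest library in all 4 groups, which held for 1 of the 6 tested members and for 3.92% of genes tested. All groups overlapped, and the 6 log2 fold changes ran from -0.20 to 0.26 with edgeR adjusted p from 0.785 to 1. MMP19 was the 1 tested member besides MMP16 that was not highest in S534A replicate 2. It shares 17.4% of its exon bases with TMEM198B on the opposite strand.

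MMP3 and MMP2 stood far above the floor in only 1 and 2 of the 12 libraries. MMP3, the stromelysin, lies on chromosome 11 from 102835801 to 102843803 on the minus strand, 37640 bases from MMP1 in a cluster of 9 MMP genes. It was counted 0, 1 and 3 times in the control vector libraries, 3, 0 and 1 times in the ∆GAG-BG libraries, 2, 18 and 0 times in the S534A libraries and 3, 2 and 4 times in the S545A libraries. The 18 counts of S534A replicate 2 (0.600 CPM, exact 95% Poisson interval 0.356 to 0.948) stood alone. The other 2 S534A libraries, at 0.0710 and 0 CPM, were at or below the floor, which held for 10 of the 12 libraries in all. Thus no difference between groups was detectable at this depth. MMP3 is one of the genes the study singled out from these same libraries, so its values here are not independent evidence. In addition 2.88% of the 50-base stretches of its transcripts also occur in MMP10, which had 0 to 6 counts.

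MMP2, gelatinase A, lies on chromosome 16 from 55389700 to 55506691 on the plus strand and is the proenzyme that MMP14 activates. It was counted 2, 1 and 4 times in the control vector libraries, 23, 2 and 2 times in the ∆GAG-BG libraries, 2, 29 and 0 times in the S534A libraries and 8, 2 and 3 times in the S545A libraries. ∆GAG-BG replicate 1 (1.04 CPM, Poisson interval 0.661 to 1.56) and S534A replicate 2 (0.967 CPM, 0.648 to 1.39) were alike, although their labels differ, and 8 of the 12 libraries were at or below the floor. The group means of 0.408 ± 0.549 CPM in ∆GAG-BG and 0.346 ± 0.539 CPM in S534A (SD, n = 3) were therefore each set by 1 library. So transcripts of the activator MMP14 were abundant in every library, while those of its substrate were near the floor in most. MMP2 shares 3.5% of its exon bases with a gene on the same strand, so strand does not separate reads there. Of the 50-base stretches of its transcripts, 2.57% also occur in another gene.

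**Figure D3:**
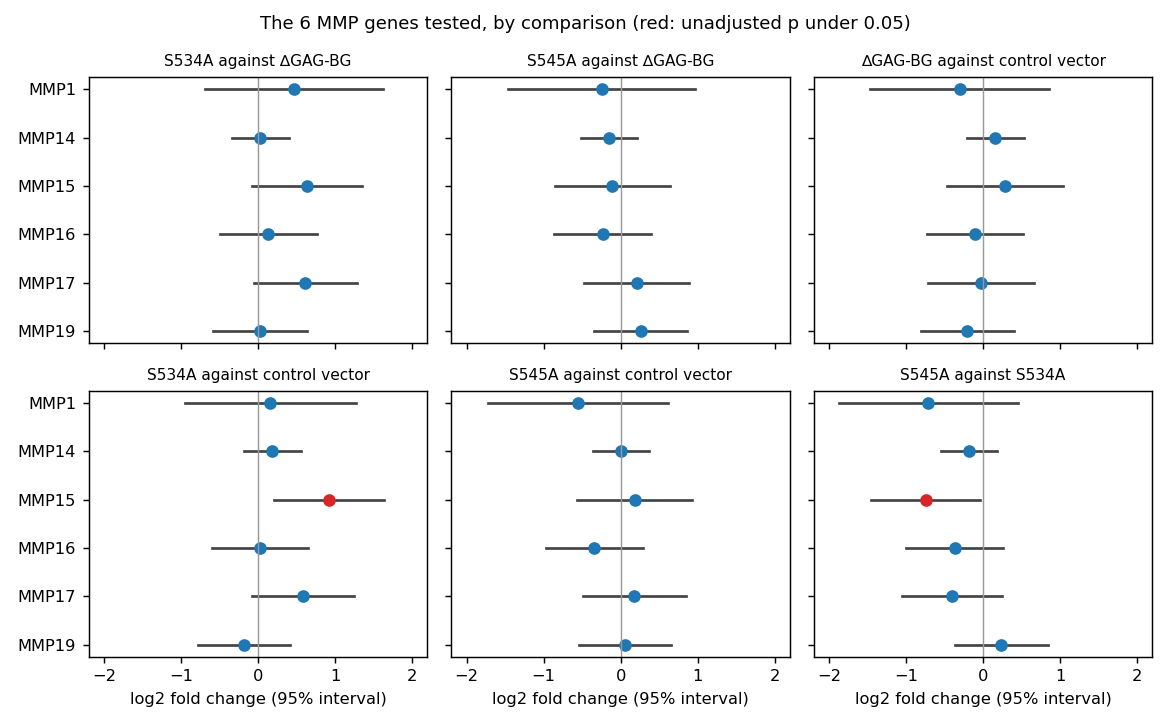
Log2 fold changes of the 6 tested MMP genes in the 6 comparisons of groups, as points with 95% intervals from edgeR's fit of all 12 libraries; red marks an unadjusted p under 0.05. Only MMP15 is red, for S534A against control vector (0.93) and S545A versus S534A (-0.74), and the adjusted p of these is 0.871 and 0.702.

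Described as a set, the 6 tested members had a median log2 fold change of 0.30 in S534A against ∆GAG-BG, where that of all genes tested was -0.0026. The medians were 0.17 in S534A against control vector (all genes 0.0078) and -0.39 in S545A against S534A (all genes -3e-04). They were -0.13 in S545A versus ∆GAG-BG (all genes -0.0066), -0.07 in ∆GAG-BG versus control vector (0.003) and 0.03 for S545A relative to control vector (5e-04). These comparisons share libraries, so the values are not separate evidence, and the comparisons with the larger medians are those that hold S534A replicate 2.

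That library was the highest of 12 for 4 of the 6 tested members, MMP1, MMP14, MMP15 and MMP17, and for 26.2% of genes tested. S534A replicate 2 and ∆GAG-BG replicate 1 were the 2 highest libraries for MMP1 and MMP14, 2 of the 6 tested members, and for 7.6% of genes tested. HSPA5, an endoplasmic reticulum chaperone, was lowest in S534A replicate 2 (287 CPM) and highest in ∆GAG-BG replicate 1 (11900 CPM), with 1230 to 3900 CPM in the other libraries. Summed endothelial markers were 171 CPM in S534A replicate 2 and 296 to 445 CPM in the other libraries, mainly through CDH5 (168 CPM there and 291 to 431 CPM elsewhere). Summed fibroblast markers, almost all COL1A1 with DCN and LUM at 0, were 8.14 CPM in S534A replicate 2 and 8.47 to 17.8 CPM in the other libraries. The part of these library differences in the MMP values was not tested. In bulk RNA a change in the share of expressing cells and a change in RNA per cell cannot be told apart.

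**Figure D4:**
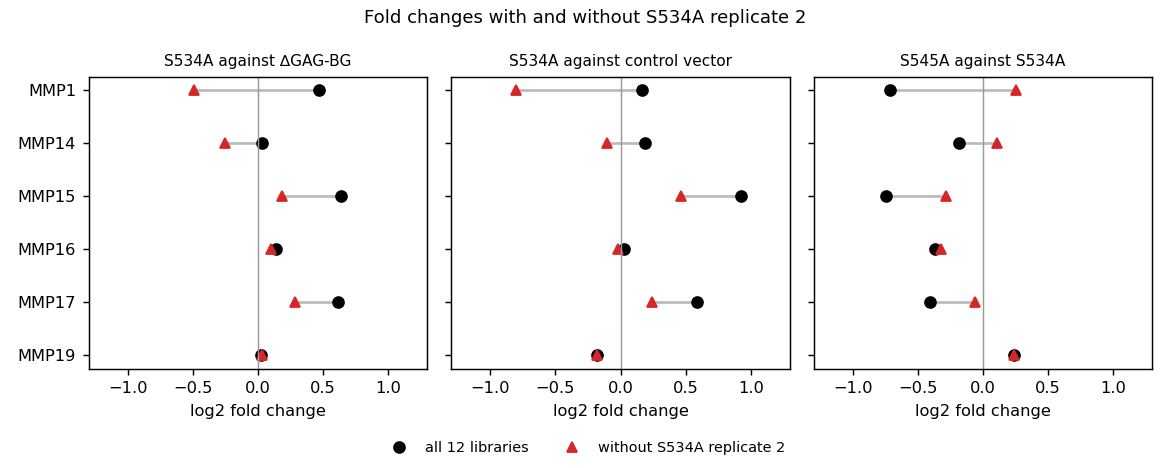
Log2 fold changes of the 6 tested MMP genes in the 3 comparisons that hold the S534A group, with all 12 libraries (circles) and without S534A replicate 2 (triangles). MMP1 and MMP14 change sign in all 3 (for MMP14 from 0.03 to -0.26 in S534A against ∆GAG-BG), MMP15 and MMP17 move toward 0, MMP16 moves by less and changes sign in S534A against control vector, and MMP19 hardly moves.

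The other genes of the pathway were given by lists. Of the 15 other MMP genes of the table, 1 passed the filter: MMP9, gelatinase B. It was at 0.484, 0.377 and 0.313 CPM in the control vector libraries, at 1.09, 0.325 and 0.226 CPM in the ∆GAG-BG libraries, at 0.746, 4.40 and 0.182 CPM in the S534A libraries and at 1.59, 0.343 and 0.307 CPM in the S545A libraries. S534A replicate 2 was again highest, and S534A against control vector gave a log2 fold change of 2.23 (SE 0.978, edgeR p = 0.0426, adjusted p = 0.871, exact permutation p = 0.4). In that comparison 3.45% of genes tested had an unadjusted p under 0.05. MMP7, MMP12, MMP20, MMP26 and MMP27 had 0 counts in every library.

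Of 6 inhibitors 5 were tested, and 0 passed the adjusted threshold in any comparison. TIMP2, which inhibits MMPs and also serves the activation of pro-MMP2 by MMP14, was the highest of them at 407 to 559 CPM. TIMP1 was at 110 CPM in S534A replicate 2, 83.7 CPM in ∆GAG-BG replicate 1 and 50.6 to 59.4 CPM elsewhere, the same pair of high libraries as for MMP1 and MMP14. TIMP3, which binds to the matrix, was at 25.3, 15.2 and 26.4 CPM in the S534A libraries and at 35.5, 51.7 and 50.4 CPM in the ∆GAG-BG libraries, so the groups did not overlap, as for 2.97% of genes tested in this direction. Its log2 fold change was -1.05 (SE 0.219) with an edgeR p of 0.000461, an adjusted p of 0.89 and an exact permutation p of 0.1. The values 51.7 and 50.4 CPM came from ∆GAG-BG libraries 2 and 3, where TGFBR3 was low (20.3 and 21.4 CPM). TIMP3 was at 38, 30.1 and 27.1 CPM in the control vector libraries. Relative to control vector its log2 fold change was 0.53 in ∆GAG-BG with overlap (SE 0.216, exact permutation p = 0.2). In S534A it was -0.52 without overlap (SE 0.218, exact permutation p = 0.1). Whether TIMP3 goes with label or with TGFBR3 was not tested. TIMP3 also lay higher in S545A (30.1, 35.7 and 39.9 CPM) than in S534A without overlap, as for 5.31% of genes tested (log2 fold change 0.67, SE 0.218, edgeR adjusted p = 0.702, exact permutation p = 0.1), but overlapped between S545A and ∆GAG-BG (-0.38, SE 0.215, edgeR adjusted p = 1). TIMP3 was singled out by the study from these libraries too.

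Of 11 activators and surface partners 10 were tested, and 0 had an unadjusted p under 0.05 in any comparison. CD44, a hyaluronan receptor that docks MMPs on the cell, was at 1660 CPM in S534A replicate 2, 1530 CPM in ∆GAG-BG replicate 1 and 911 to 1180 CPM elsewhere. PLAU, the urokinase that generates plasmin, ran from 468 to 727 CPM. It was lower in replicate 1 than in replicates 2 and 3 of every group, as were 3.92% of genes tested. Of 12 transcription factors known at MMP promoters all were tested, with 0 at the adjusted threshold and 1 at an unadjusted p under 0.05, RUNX2 in S545A against S534A (log2 fold change 0.57, SE 0.256, edgeR p = 0.0479, adjusted p = 0.702, exact permutation p = 0.1). At that level stood 4.78% of genes tested in this comparison. RUNX2 was at 28.4, 14.8 and 31.6 CPM in the S534A libraries, with S534A replicate 2 the lowest of the 12 libraries. The S545A libraries were at 33.5, 38.4 and 38.6 CPM. FOSL1, an AP-1 subunit, was the highest of the 12 factors per length and varied little, from 521 to 648 CPM.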

How the data were processed

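The values are whole-number counts of reads per gene, which the authors obtained with featureCounts from trimmed reads and deposited as such, without scaling. The submitters' processing notes name FastQC, Trim Galore 0.4.5, STAR 2.4, SAMtools 1.2 and featureCounts, and mouse builds, but the table holds human symbols with GRCh38 coordinates, the same as GENCODE release 29 for all 9 members. The study used bioJupies for its differential expression.

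From the deposited counts, 16069 genes passed edgeR's filterByExpr (minimum count 10) and, after TMM scaling, entered the robust quasi-likelihood test of edgeR 4.0.16 (R 4.3.3). All 4 groups shared a single fit, with 8 residual degrees of freedom and a biological coefficient of variation of 0.163. SEs were taken from the log2 fold change and its F value. Permutation tests were two-sided and exact, on log2(CPM + 1), and the permutation p-values printed are unadjusted. Adjusted over the 36 tests of the members, the permutation p was at least 0.969. Genes of the lists were not in that adjustment. RPKM used the table's lengths. In simulated counts where 200 of 15867 genes were changed 2-fold for S534A versus ∆GAG-BG, edgeR recovered 123 with 6 false calls, DESeq2 1.42.0 recovered 146 with 31 and limma-voom (limma 3.58.1) 126 with 5. In S545A versus ∆GAG-BG, simulated with 0 genes changed, DESeq2 made 13 false calls and the others 0. In the deposited counts of S534A versus ∆GAG-BG, edgeR called 0 of 16069 genes. TGFBR3, which was uneven among the ∆GAG-BG libraries, was not called there at a log2 fold change of 2.16 (SE 1.01, edgeR adjusted p = 0.89). The recovery in simulated counts is therefore not taken as the power of the comparisons of deposited libraries.

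The named genes are the 9 members, TGFBR3 and HSPA5, the genes most like a member, and, of the lists of other MMPs, inhibitors, activators and promoter factors, genes at an unadjusted p under 0.05 or among the 3 highest. Members and lists were chosen with earlier results of these data known. The cell type markers named in the text, MMP10, TMEM198B, MMP24-AS1 and the MMPs at 0 were picked after their values were seen.

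Same-numbered libraries of S545A and control vector moved together around the means of their groups (r = 0.73, 0.48 and 0.48). The replicate numbers were therefore taken as pairs for that comparison only, from the data, since the labels give no shared batch or day. Libraries 2 and 3 were nearly alike in both groups, so these r values cannot tell whether 2 and 3 pair by number. Alternatives were DESeq2, limma-voom, RLE factors, library size only, other filters, only the 2 groups compared, a replicate block, each library left out, and libraries 2 and 3 summed. Leaving out S534A replicate 2 and ∆GAG-BG replicate 1 together was chosen after seeing the data.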

Additional observations from a re-analysis of the deposited data

How the results depend on the processing

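No member passed the adjusted threshold under any alternative, so the count of members called was 0 in all 96 recomputed counts. Of 576 recomputed log2 fold changes, 529 kept their sign and 47 reversed it, none past the adjusted threshold. With limma-voom MMP14 in S534A against ∆GAG-BG was -0.0085 and MMP1 in S534A against control vector -0.11. With libraries 2 and 3 summed these were -0.0131 for MMP14 in S534A against ∆GAG-BG and -0.14 for MMP16 in S534A against control vector. MMP14 in S545A against control vector was -5e-04 with DESeq2 and with RLE size factors, and -0.0083 with no filter. Without S534A replicate 2 and ∆GAG-BG replicate 1 together, MMP14 was -0.17 and MMP19 -0.21 in S534A against ∆GAG-BG, MMP1 0.42 in S545A against ∆GAG-BG, MMP19 0.0302 in ∆GAG-BG against control vector, MMP1 -0.81, MMP14 -0.10 and MMP16 -0.0128 in S534A against control vector, and MMP1 0.26 and MMP14 0.11 in S545A against S534A. In that setting the values of MMP14 in S534A against ∆GAG-BG and of MMP1 in S534A against control vector had an unadjusted p under 0.05 (edgeR adjusted p of 1 for both), as did MMP1 in ∆GAG-BG against control vector (-0.97, edgeR adjusted p = 0.871). The cause was not tested.

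Leaving out 1 library at a time, log2 fold changes in S534A against ∆GAG-BG ran from -0.50 to 1.14 for MMP1, from -0.26 to 0.18 for MMP14 and from -0.21 to 0.21 for MMP19. In S534A against control vector they ran from -0.80 to 0.55 for MMP1, from -0.10 to 0.33 for MMP14 and from -0.14 to 0.42 for MMP16. In S545A against S534A they ran from -1.10 to 0.25 for MMP1 and from -0.33 to 0.11 for MMP14. In S545A against ∆GAG-BG they ran from -0.51 to 0.43 for MMP1, from -0.31 to 0.0407 for MMP15 and from -0.0778 to 0.40 for MMP17. In ∆GAG-BG against control vector they ran from -0.28 to 0.29 for MMP16, from -0.23 to 0.15 for MMP17 and from -0.40 to 0.0198 for MMP19. In S545A against control vector they ran from -0.0152 to 0.0327 for MMP14, from -0.0245 to 0.42 for MMP15, from -0.68 to 0.0547 for MMP16, from -0.11 to 0.36 for MMP17 and from -0.095 to 0.26 for MMP19.

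The replicate block, fitted for all 6 comparisons, changed no adjusted call and moved the members at an unadjusted p under 0.05 in S545A against S534A from 1 to 0. Over all alternatives the number of members at an unadjusted p under 0.05 changed in 24 of 96 recomputed counts. MMP15 had an unadjusted p under 0.05 in 11 of 16 settings for S534A against control vector. For S545A against S534A it did so in 7 of 16 settings. Of the 12 libraries, 6 correlated best with their own number, so outside S545A against control vector the numbers were not taken as pairs. Depth limited MMP2, MMP3 and MMP24, which had at most 29, 18 and 7 counts in any library.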

Other observations

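The genes whose levels most resembled those of each tested member over the 12 libraries were taken by the Pearson correlation of log2(CPM + 1), as a description of libraries that share groups and depth. For MMP14 these were SHISA2 (r = 0.967) and AMPD2 (0.957), for MMP1 PRR4 (0.921) and RPS27 (0.92), for MMP15 TMEM5 (0.975) and AK4 (0.966), and for MMP17 PYGO2 (0.959) and SNAI2 (0.957). All 8 of these genes were highest in S534A replicate 2, as these members were. For MMP16 they were VDAC1 (0.984) and SF3A1 (0.982), highest in control vector replicate 1, and for MMP19 CYR61 (0.965) and EMP1 (0.948), highest in S545A replicate 3.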
